A study of Mus musculus with 8 samples.

Results

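The genes described here are 49 genes of the cell cycle and of DNA replication, chosen as a named list and found on the arrays by gene symbol. All 49 were on the array, with 65 probes, and 48 of them were among the 24388 genes tested; Ccne2, a G1/S cyclin, was not well above background on any array and was not tested. They were grouped by role into 9 G1 cyclins, kinases and E2f1, 15 genes of DNA replication, 21 genes of G2 and mitosis, and 4 inhibitors of cyclin-dependent kinases. The RNA came from mouse cardiac outflow tracts, the vessel-like pole through which blood leaves the embryonic heart, dissected at E10.5 and pooled by 4. One group of 4 pools (numbers 1, 2, 3 and 7) was Raldh2-/-, lacking the enzyme Aldh1a2 (formerly Raldh2) that makes retinoic acid. The other 4 pools (1, 2, 5 and 7) were wild type littermates. Both groups carried the same rescue: the dams ate food with all-trans retinoic acid at 0.1 mg per g from E7.5 to E8.5, so neither an untreated wild type nor an unrescued mutant is part of the comparison. The strain and the sex of the embryos are not given in the sources used here. Each pool was hybridised to 1 one-colour Agilent array, and since nothing in the labels states that pools came from separate litters, p-values measure the spread between these pools only.

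The cell cycle is driven by cyclin-dependent kinases, which act only when bound to a cyclin. D-type cyclins with Cdk4 or Cdk6, and then E-type cyclins with Cdk2, release E2F factors from the retinoblastoma protein, and E2F factors switch on the genes of DNA replication. The Cdk1 kinase with A- and B-type cyclins drives mitosis, and many mitotic genes are transcribed late in the cycle through CCAAT boxes and cell cycle homology regions (CHR) in their promoters. Cdk inhibitors such as p21 (Cdkn1a) and p27 (Cdkn1b) hold the kinases back. In the embryonic heart, the progenitors that lengthen the outflow tract proliferate actively and slow down as they differentiate into muscle.

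A level is given as the log2 processed signal of a gene's brightest probe minus the log2 of the 75th percentile of its array, so that 0 is the signal at that percentile. The array labelled wild type pool 1 differed from the rest. The median of its processed signals was 2023, where the medians of the remaining 7 arrays were 40.0 to 83.0, and 94.7% of its spots cleared background against 53.3% to 63.2%. Its median correlation with the other arrays was 0.775, where the other 7 had 0.979 to 0.989. The comparisons are therefore given over the 7 arrays without it, with values over all 8 beside the main ones. Aldh1a2 itself measured 2.02, 2.01, 1.87 and 0.06 in the knockout pools, against 3.21, 2.98 and 3.65 for wild type pools 2, 5 and 7, with 1.92 on the array labelled wild type pool 1, which lies inside the knockout range. Its difference was -1.79 ± 0.50 (SE) over 7 arrays (limma, adjusted p = 0.366) and -1.45 ± 0.55 over 8 (adjusted p = 0.735), and where its probe lies relative to the deletion is not given in the sources used here. All 12 cardiomyocyte markers were well above background on all 8 arrays. The slide held the knockout arrays in one row and the wild type arrays in the other, so slide row and genotype cannot be told apart.

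No cell cycle gene passed the test in either fit, and no gene of the whole array did: 0% of 24388 genes over 8 arrays and 0% of 23762 over 7 had a limma adjusted p under 0.05, with smallest values of 0.494 and 0.218. Most of the 48 genes lay higher in the rescued Raldh2-/- pools with arrays scaled to their 75th percentile, though 16 of 48 did over 7 arrays scaled to their median. Over 7 arrays, 42 of 48 had a log2 fold change above 0, beside 59.3% of all genes, with a median of 0.14 beside 0.05. Leaving out 1 pool at a time gave medians of 0.07 to 0.20, the lowest without wild type pool 2 (0.07 beside 0.04 for all genes). Over 8 arrays, 45 of 48 did, beside 57% of all genes, with medians of 0.64 and 0.13; with quantile normalization these were 0.27 and 0.20, and with array weights 0.17 and 0.04. The zero point of these counts rests on the scaling. With each array scaled to its median in place of its 75th percentile, every difference over 7 arrays shifted by -0.21 and the median of all genes became -0.15. Relative to the median of all genes, 39 of 48 members lay above it under either scaling over 7 arrays, 31 of 48 without wild type pool 2, and 34 of 48 over 8 arrays with quantile normalization.

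The roles differed in their medians. Over 7 arrays, the median log2 fold change was 0.26 for the 15 DNA replication genes, 0.15 for the 21 genes of G2 and mitosis, 0.01 for the 8 G1 genes tested and -0.11 for the 4 inhibitors. At an unadjusted p under 0.05, 8 members were higher and 1 lower, beside 6.25% and 4.36% of all genes; 6 of the 8 were replication genes. In 6 members every knockout pool lay above every wild type pool (6.57% of all genes) and in 1 every knockout pool lay below (4.87%). Both upward counts include Aurkb, which passed the filter on dim probes through the knockout pools alone, and its place in them is no result. Over 8 arrays, 1 member (Aurkb again) was higher at an unadjusted p under 0.05 (0.656% of all genes) and none lower (1.12%), and 6 were separated upwards (3.94%) and none downwards (1.54%). The 6 separated upwards again include Aurkb. How the roles differ was not tested.

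**Figure D1:**
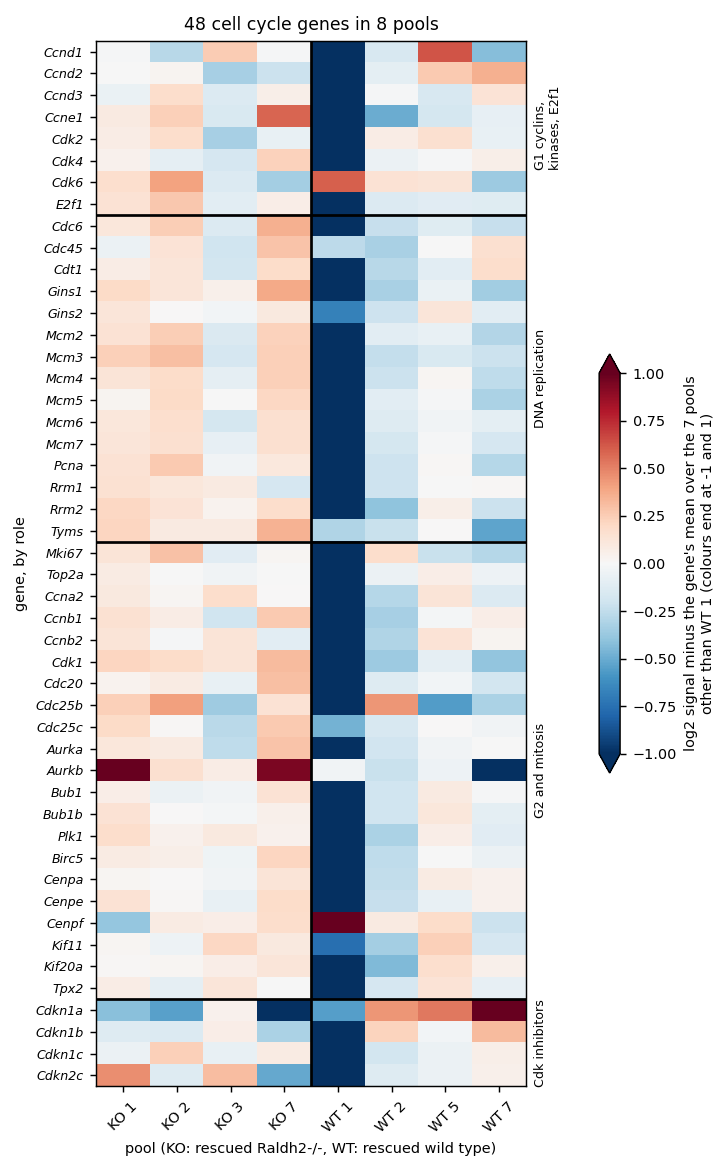
Colour shows the log2 signal of each of the 48 genes (vertical axis, by role) in each of the 8 pools (horizontal axis), minus the gene's mean over the 7 pools other than wild type pool 1; colours end at -1 and 1. The column of the array labelled wild type pool 1 is blue for most genes (lower than the mean of the other wild type pools in 45 of 48), and the replication genes are redder in the knockout pools except pool 3.

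**Figure D2:**
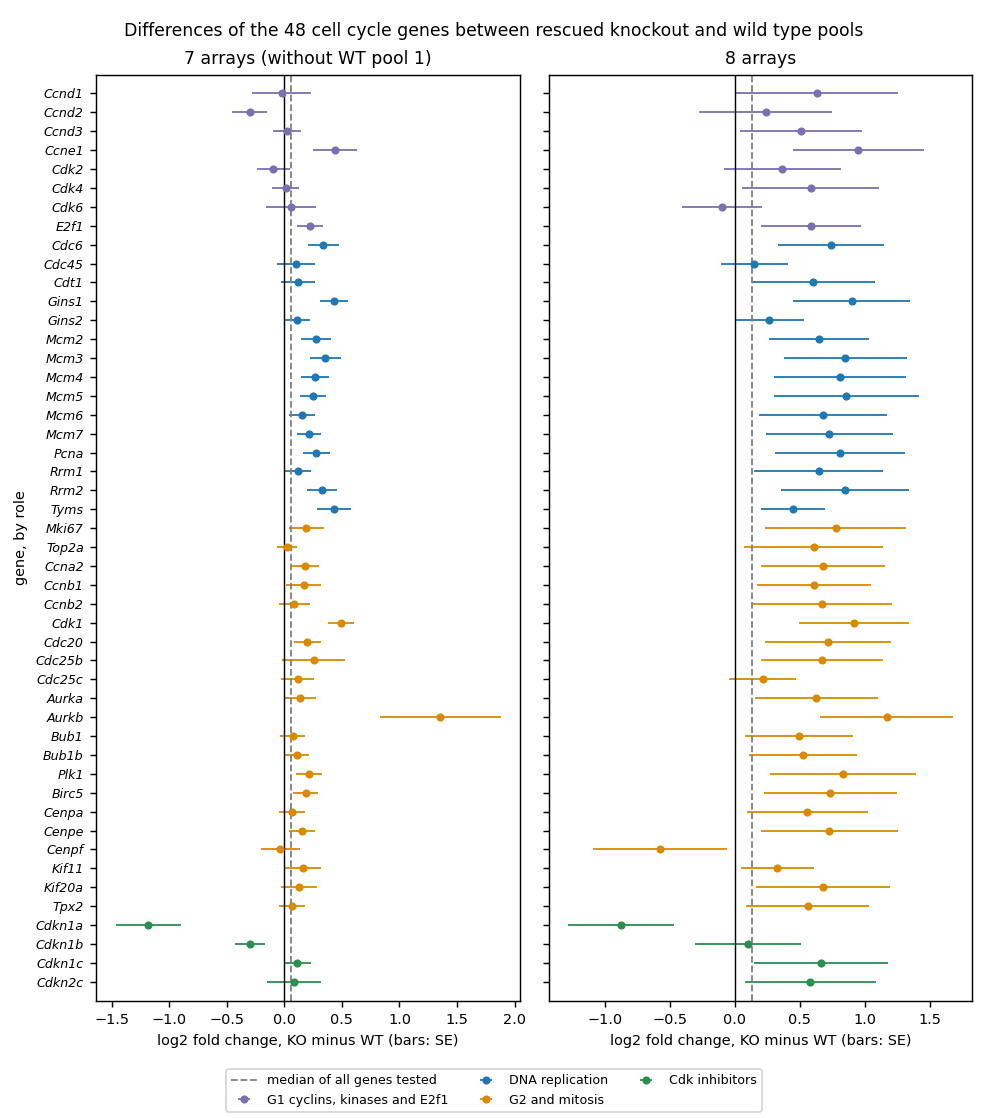
Points are log2 fold changes, rescued knockout minus rescued wild type, of the 48 genes (vertical axis) over 7 arrays (left) and 8 arrays (right), bars are SE, and the dashed line is the median of all genes tested (0.05 and 0.13). All 15 replication genes lie to the right of the dashed line in both panels (11 of 15 over 8 arrays with quantile normalization), and 10 of 15 lie above 0 over 7 arrays once each array is scaled to its median.

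The promoters of a few members are shown for the sequence elements known from replication and mitotic genes. No stated rule chose these members, and none of them passed the test. RefSeq (build GRCm38.p6) gave the bases before the annotated start of 37 of the 49 genes; the 12 without a window here are Ccnd1, Ccnd2, Ccne2, Gins1, Gins2, Mcm4, Ccna2, Cdc25c, Aurkb, Kif20a, Tpx2 and Cdkn1c. The 250 bases before the start are printed 5′ to 3′ on the gene's strand for Cdk1 (chr10:69352913-69353162, minus strand), Mcm3 (chr1:20820313-20820562, minus), Mcm5 (chr8:75109259-75109508, plus), Rrm2 (chr12:24708004-24708253, plus) and both annotated starts of Cdkn1a (chr17:29090729-29090978 and chr17:29093519-29093768, plus). Capitals mark matches on either strand to the CCAAT box (CCAAT, or ATTGG on the other strand), the CHR (TTTGAA) and the E2F element (TTTCCCGC, TTTGGCGC, TTTGCCGC or TTTCGCGC).
Cdk1: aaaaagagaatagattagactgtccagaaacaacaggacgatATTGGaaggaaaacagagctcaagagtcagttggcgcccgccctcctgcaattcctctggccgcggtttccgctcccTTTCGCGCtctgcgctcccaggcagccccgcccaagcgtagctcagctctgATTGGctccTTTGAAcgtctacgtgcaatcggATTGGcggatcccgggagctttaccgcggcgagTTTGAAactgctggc
Mcm3: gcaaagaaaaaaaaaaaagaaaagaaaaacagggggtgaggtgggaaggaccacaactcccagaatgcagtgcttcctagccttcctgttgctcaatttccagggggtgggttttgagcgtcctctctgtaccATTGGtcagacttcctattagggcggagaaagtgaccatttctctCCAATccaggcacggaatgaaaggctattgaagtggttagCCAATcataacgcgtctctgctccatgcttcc
Mcm5: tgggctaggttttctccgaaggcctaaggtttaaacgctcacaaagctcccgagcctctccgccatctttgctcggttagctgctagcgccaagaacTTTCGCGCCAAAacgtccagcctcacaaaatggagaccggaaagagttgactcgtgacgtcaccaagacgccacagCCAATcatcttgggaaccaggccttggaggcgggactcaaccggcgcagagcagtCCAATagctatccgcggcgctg
Rrm2: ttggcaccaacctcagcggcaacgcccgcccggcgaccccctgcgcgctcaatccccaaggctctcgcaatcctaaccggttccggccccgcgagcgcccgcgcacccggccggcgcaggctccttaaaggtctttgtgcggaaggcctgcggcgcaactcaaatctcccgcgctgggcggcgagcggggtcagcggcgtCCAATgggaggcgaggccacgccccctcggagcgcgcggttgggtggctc
Cdkn1a, upstream start: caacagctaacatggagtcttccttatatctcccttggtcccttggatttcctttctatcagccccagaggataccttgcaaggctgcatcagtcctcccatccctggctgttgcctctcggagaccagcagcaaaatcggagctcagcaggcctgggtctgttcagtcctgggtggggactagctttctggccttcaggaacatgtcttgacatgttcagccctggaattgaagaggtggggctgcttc
Cdkn1a, downstream start: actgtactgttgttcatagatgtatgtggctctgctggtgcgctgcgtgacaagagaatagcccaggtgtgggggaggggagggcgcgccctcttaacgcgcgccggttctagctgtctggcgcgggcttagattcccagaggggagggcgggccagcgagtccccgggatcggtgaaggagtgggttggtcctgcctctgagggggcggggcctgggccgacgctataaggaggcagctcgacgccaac
The Cdk1 window holds all 3 kinds of element, with CHR matches at 71 to 66 and at 15 to 10 bases before the start. The Mcm5 window holds an E2F match on each strand, which overlap and read as 1 run of capitals (153 to 142 bases before the start). The 2 Cdkn1a windows hold none of these letters, which says nothing about which factors bind there. Some windows not printed held none either, among them those of Tyms, E2f1 and Ccne1.

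Across the 37 genes with a window, 27 held a CCAAT box, beside 37.5% of 27025 genes with a window of the same length. By role, it was in 15 of 16 genes of G2 and mitosis, in 9 of 12 replication genes, in 2 of 6 G1 genes and in 1 of 3 inhibitors. An E2F element was in 6 of 37, beside 2.16% of all genes, and 4 of these 6 are replication genes (Cdc6, Mcm5, Mcm6 and Mcm7). A CHR was in 8 of 37 (21.6%), near the 18.3% of all genes, and 6 of the 8 belong to G2 and mitosis (Ccnb2, Cdc20, Cdk1, Kif11, Mki67 and Top2a). In the lists of other pathway genes described below, a CHR was in 8 of 16 G1 and Rb pathway genes and 4 of 32 replication genes. It was in 14 of 39 genes of G2 and mitosis and 2 of 10 p53 targets. A CCAAT box was in 7, 17, 24 and 8 genes of these lists. An E2F element was in 6 (37.5%), 7 (21.9%), 4 and 0 of them. These are matches of letters and were not measured as binding.

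The G1 genes, which bring a cell to the start of DNA synthesis, had a median difference of 0.01 over 7 arrays. Of the 8 tested, 5 had a log2 fold change above 0 and 3 below, from -0.30 for Ccnd2 to 0.44 for Ccne1; with arrays scaled to their median, 2 lay above 0. None had an unadjusted p under 0.05 by limma in either fit. Over 8 arrays, 7 of 8 lay above 0, with a median of 0.55. Of all genes, 59.3% lay above 0 over 7 arrays and 57% over 8.

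The D-type cyclins couple growth signals to Cdk4 and Cdk6. Ccnd1 measured 4.00, 3.74, 4.26 and 4.00 in knockout pools 1, 2, 3 and 7, against 3.85, 4.64 and 3.58 in wild type pools 2, 5 and 7 and 1.39 on the array labelled wild type pool 1. Wild type pool 5 was the highest of all, so the groups overlap, and the difference over 7 arrays was -0.02 ± 0.26 (SE; limma 95% interval -0.63 to 0.58), against 0.63 ± 0.62 over 8. Ccnd2 measured 4.91, 4.94, 4.58 and 4.70 in the knockout pools and 4.82, 5.18 and 5.27 in the wild type pools, with 2.92 on the array labelled wild type pool 1. Knockout pools 3 and 7 were the lowest of the 7, but wild type pool 2 lay within the knockout range; the difference was -0.30 ± 0.15 over 7 arrays (limma, adjusted p = 0.512) and 0.24 ± 0.51 over 8. Ccnd3 measured 6.41, 6.65, 6.34 and 6.53 in the knockout pools, 6.46, 6.31 and 6.62 in the wild type pools and 4.51 on the array labelled wild type pool 1. Its groups overlapped throughout, with a difference of 0.02 ± 0.12 over 7 arrays (interval -0.27 to 0.30), or -0.19 with arrays scaled to their median; over 8 arrays it was 0.51 ± 0.47.

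Cdk4, a kinase partner of the D-type cyclins, measured 6.27, 6.14, 6.06 and 6.46 in the knockout pools, against 6.17, 6.21 and 6.28 for wild type pools 2, 5 and 7. The array labelled wild type pool 1 read 3.92. The wild type pools lay inside the knockout range, and the difference was 0.01 ± 0.12 over 7 arrays (limma 95% interval -0.27 to 0.29), or -0.20 with arrays scaled to their median, and 0.58 ± 0.53 over 8. Cdk2, which pairs with cyclins E and A, differed by -0.10 ± 0.14 over 7 arrays and 0.36 ± 0.45 over 8. Cdk6 differed by 0.06 ± 0.22 over 7 arrays, or -0.15 with arrays scaled to their median, and by -0.10 ± 0.31 over 8.

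Ccne1, the E-type cyclin that activates Cdk2 at the G1/S boundary, had the largest difference among the G1 genes. It measured 3.54, 3.69, 3.30 and 4.04 in the knockout pools, against 2.96, 3.28 and 3.37 in wild type pools 2, 5 and 7 and 1.15 on the array labelled wild type pool 1. Only knockout pool 3 fell within the wild type range, at 3.30 below the 3.37 of wild type pool 7. The difference was 0.44 ± 0.19 over 7 arrays (limma, adjusted p = 0.475) and 0.95 ± 0.50 over 8 (adjusted p = 0.735); a second Ccne1 probe gave 0.17.

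E2f1, the transcription factor that activates replication genes, was measured by a probe at chr2:154385798-154385857 (mm9). It read 1.77, 1.89, 1.51 and 1.69 in the knockout pools, against 1.48, 1.50 and 1.50 in wild type pools 2, 5 and 7 and 0.03 on the array labelled wild type pool 1. The groups do not overlap, but knockout pool 3 lay just above wild type pools 5 and 7. The difference was 0.22 ± 0.11 over 7 arrays (limma, adjusted p = 0.524) and 0.59 ± 0.38 over 8 (adjusted p = 0.735).

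The DNA replication genes, from origin licensing to nucleotide supply, had the highest median of the 4 roles in both fits, but not over 8 arrays with quantile normalization (0.31, beside 0.36 for the G1 genes). All 15 had a log2 fold change above 0 in both fits, from 0.10 to 0.43 over 7 arrays and from 0.15 to 0.90 over 8. Of all genes, 59.3% did over 7 arrays and 57% over 8. With arrays scaled to their median, 10 of the 15 stayed above 0 over 7 arrays, and all 15 stayed above the median of all genes. With quantile normalization over 8 arrays, 11 of the 15 lay above the median of all genes, which was itself 0.20. None passed the test in either fit. Over 7 arrays, 6 were higher at an unadjusted limma p under 0.05, beside 6.25% of all genes. Over 8 arrays none was, beside 0.656%.

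Licensing of origins begins with Cdc6 and Cdt1, which load the Mcm2 to Mcm7 helicase onto DNA. Cdc6 measured 0.27, 0.40, 0.02 and 0.51 in the knockout pools, against -0.08, 0.04 and -0.08 in wild type pools 2, 5 and 7 and -1.64 on the array labelled wild type pool 1. Knockout pool 3 lay below wild type pool 5, so the groups overlap by that 1 pool, and the difference was 0.34 ± 0.13 over 7 arrays (limma, adjusted p = 0.455). A second Cdc6 probe gave 0.52 and its groups did not overlap. Cdt1 differed by 0.12 ± 0.15, which became -0.09 with arrays scaled to their median.

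The 6 helicase subunits Mcm2 to Mcm7 all lay above 0, at 0.15 to 0.35 over 7 arrays, and with arrays scaled to their median Mcm6 turned to -0.05 while the other 5 stayed above 0. Mcm2 measured 3.38, 3.48, 3.09 and 3.47 in the knockout pools, against 3.13, 3.16 and 2.94 in wild type pools 2, 5 and 7 and 1.59 on the array labelled wild type pool 1. Knockout pool 3 lay below wild type pools 2 and 5, and the difference was 0.28 ± 0.13 over 7 arrays (limma, adjusted p = 0.496). Mcm3 measured 5.22, 5.29, 4.81 and 5.22 in the knockout pools, against 4.75, 4.83 and 4.76, with 2.79 on the array labelled wild type pool 1. Again knockout pool 3 alone fell within the wild type range, and the difference was 0.35 ± 0.13 (limma, adjusted p = 0.443 over 7 arrays, 0.735 over 8). A second Mcm3 probe gave 0.20 over 7 arrays, with wild type pool 5 above knockout pools 1, 3 and 7. Mcm5, whose promoter is printed with its overlapping E2F matches, read 3.79, 3.96, 3.77 and 3.98 in the knockout pools and 3.66, 3.76 and 3.45 in the wild type pools, with 1.18 on the array labelled wild type pool 1. Its groups did not overlap, though knockout pool 3 lay just above wild type pool 5, and the difference was 0.25 ± 0.12.

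Gins1, a subunit of the GINS complex that works with Cdc45 and the Mcm helicase at the fork, was measured at chr2:150756868-150756927 (mm9). It read 2.15, 2.08, 2.01 and 2.33 in the knockout pools, against 1.63, 1.89 and 1.60 in wild type pools 2, 5 and 7 and -0.16 on the array labelled wild type pool 1. Every knockout pool lay above every wild type pool. The difference was 0.43 ± 0.12 over 7 arrays, a 1.35-fold difference (limma, unadjusted p = 0.00908, adjusted p = 0.366), and 0.90 ± 0.45 over 8 (adjusted p = 0.735). Gins2 and Cdc45 differed by 0.11 ± 0.11 and 0.10 ± 0.17 over 7 arrays, which became -0.09 and -0.11 with arrays scaled to their median.

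Pcna, the sliding clamp of the replication polymerases, measured 5.45, 5.57, 5.27 and 5.41 in the knockout pools, against 5.10, 5.32 and 5.02 in wild type pools 2, 5 and 7 and 3.02 on the array labelled wild type pool 1. Wild type pool 5 lay above knockout pool 3, and the difference was 0.28 ± 0.12 over 7 arrays (limma, adjusted p = 0.471). Among the genes that supply nucleotides, Tyms (thymidylate synthase) was the one whose groups did not overlap. It read -1.47, -1.60, -1.60 and -1.34 in the knockout pools, against -1.90, -1.68 and -2.22 in wild type pools 2, 5 and 7 and -1.99 on the array labelled wild type pool 1, so the groups do not overlap even with that array. The difference was 0.43 ± 0.15 over 7 arrays (limma, adjusted p = 0.413) and 0.45 ± 0.25 over 8 (adjusted p = 0.735). Among the 15 replication genes, the difference of Tyms moved least between the fits. The ribonucleotide reductase subunits Rrm1 and Rrm2 differed by 0.11 ± 0.12 and 0.32 ± 0.13 over 7 arrays, and with arrays scaled to their median by -0.09 and 0.12.

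**Figure D3:**
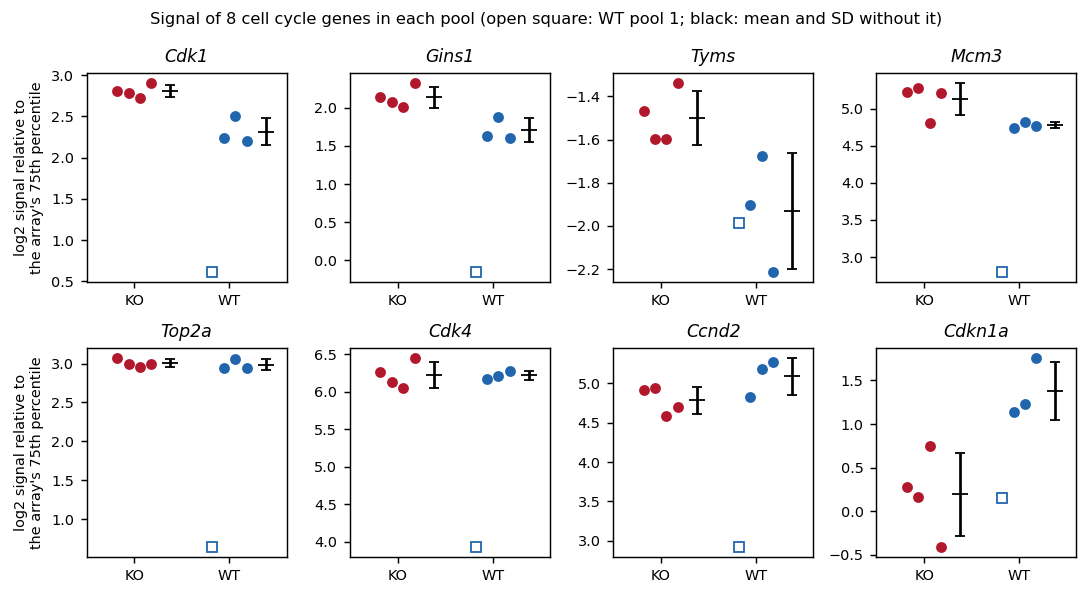
Each panel plots the level of 1 gene (log2 signal, with 0 at the 75th percentile of the array) in the 4 rescued knockout pools (red) and 4 rescued wild type pools (blue; the open square is wild type pool 1), with the mean and SD without that pool in black. Cdk1, Gins1 and Tyms do not overlap between the groups, Top2a and Cdk4 overlap in the 7 pools (differences of 0.02 and 0.01, which turn to -0.18 and -0.20 with arrays scaled to their median), and Cdkn1a is lower in the knockout pools than in wild type pools 2, 5 and 7.

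The genes of G2 and mitosis, which carry a cell from replicated DNA through division, had a smaller median over 7 arrays than the replication genes. Over 7 arrays, 20 of 21 had a log2 fold change above 0, with a median of 0.15; with arrays scaled to their median, 4 of 21 did, while 19 of 21 lay above the median of all genes under either scaling. Over 8 arrays, 20 of 21 lay above 0, with a median of 0.67. Of all genes, 59.3% lay above 0 over 7 arrays and 57% over 8. Cenpf, a kinetochore protein, was the member below 0 in both fits (-0.03 ± 0.17 over 7 arrays). In Cdk1 the groups did not overlap and the unadjusted p was under 0.05 over 7 arrays; the same was so of Aurkb, whose wild type signals were in part not above background. Without wild type pool 2, the median over 7 arrays was 0.07, 15 of the 21 lay above 0 and 13 above the median of all genes.

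Cdk1, the kinase that starts mitosis, had the smallest p of the 48 genes over 7 arrays and the second smallest over 8, after Aurkb. Its probe at chr10:68801072-68801131 (mm9) read 2.81, 2.78, 2.73 and 2.91 in the knockout pools, against 2.23, 2.51 and 2.20 in wild type pools 2, 5 and 7 and 0.61 on the array labelled wild type pool 1. All 4 knockout pools lay above all wild type pools. The difference was 0.49 ± 0.11 over 7 arrays, a 1.41-fold difference (limma, unadjusted p = 0.00287, adjusted p = 0.348), and 0.92 ± 0.42 over 8 (adjusted p = 0.735). Cdk1 had 2 further probes: a dimmer one that overlaps the first on the genome (chr10:68801053-68801112) gave 1.11 without overlap between the groups, and one at chr10:68799513-68799572 gave 0.06. The 3 probes thus disagree in size, and the position of each within the Cdk1 transcript is not given in the sources used here.

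Mki67 (Ki-67), the usual marker of cycling cells, measured 5.07, 5.23, 4.82 and 4.96 in the knockout pools, against 5.12, 4.72 and 4.66 in wild type pools 2, 5 and 7 and 2.49 on the array labelled wild type pool 1. Wild type pool 2 was the second highest of these 7, and the difference was 0.19 ± 0.15 over 7 arrays (limma 95% interval -0.17 to 0.55), or -0.01 with arrays scaled to their median, and 0.78 ± 0.54 over 8. Top2a, the topoisomerase that untangles chromosomes, measured 3.08, 2.99, 2.96 and 2.99 in the knockout pools, against 2.94, 3.06 and 2.94, with 0.64 on the array labelled wild type pool 1. The 7 pools lay within a narrow band and overlapped; the difference was 0.02 ± 0.09 (interval -0.19 to 0.23), or -0.18 with arrays scaled to their median, and 0.61 ± 0.53 over 8. Ccnb1, the cyclin B partner of Cdk1, measured 4.44, 4.36, 4.09 and 4.55 in the knockout pools and 3.96, 4.27 and 4.36 in the wild type pools, with 2.42 on the array labelled wild type pool 1. Its groups overlapped, and the difference was 0.17 ± 0.15, or -0.04 with arrays scaled to their median. Dimmer Ccnb1 probes gave 0.07 and -0.06 over 7 arrays.

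Of the mitotic kinases, Plk1, which acts at centrosomes and the spindle, measured 5.11, 4.99, 5.04 and 4.99 in the knockout pools, against 4.62, 5.00 and 4.83 in wild type pools 2, 5 and 7 and 2.34 on the array labelled wild type pool 1. Wild type pool 5 lay among the knockout pools, and the difference was 0.21 ± 0.11 over 7 arrays (limma, adjusted p = 0.538). Aurkb, the kinase of the chromosomal passenger complex, was dim: its signal cleared background in each of the 4 knockout pools but on 2 of the 4 wild type arrays. It read -3.45, -4.43, -4.52 and -3.65 in the knockout pools, against -4.81, -4.65 and -6.64 in wild type pools 2, 5 and 7 and -4.63 on the array labelled wild type pool 1. The groups did not overlap, but wild type pool 7 alone lay far below the others. The difference was 1.35 ± 0.53 over 7 arrays (limma, adjusted p = 0.448), and leaving out 1 pool at a time gave 0.72 to 1.71; 0.72 is without wild type pool 7. With normexp background correction it was 0.26 over 7 arrays, so the size for this dim gene moves with how background was treated. Aurka, its centrosomal relative, differed by 0.13 ± 0.14, and the survivin gene Birc5, a partner of Aurkb, by 0.18 ± 0.11. With arrays scaled to their median these became -0.07 and -0.02. The 2 dimmer Birc5 probes gave 0.004 and 0.06 over 7 arrays.

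The other 13 genes of this role (among them Ccna2, Ccnb2, Cdc20, the phosphatases Cdc25b and Cdc25c, the checkpoint kinases Bub1 and Bub1b, the centromere proteins Cenpa and Cenpe, and the spindle motors Kif11 and Kif20a) differed by -0.03 to 0.25 over 7 arrays, and of these Cdc25b alone stayed above 0 with arrays scaled to their median. By the brightest probe of each, none had an unadjusted p under 0.05 by limma, and none was separated between the groups. A second, dimmer Tpx2 probe gave 0.41 over 7 arrays (limma, unadjusted p = 0.0457, adjusted p = 0.483), with overlapping groups, and -0.04 over 8.

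The 4 Cdk inhibitors lay on both sides of 0. Over 7 arrays, 2 of 4 lay above 0 and 2 below, and with arrays scaled to their median all 4 lay below. Cdkn1a (p21), a target of p53 that blocks Cdk2 and binds Pcna, had over 7 arrays the second smallest p of the 48 genes and was there the only member separated downwards; over 8 arrays its groups overlapped. Its probe at chr17:29237377-29237436 (mm9) was printed 10 times on each array, and the SD between these spots within an array was 0.03 to 0.09. It read 0.28, 0.16, 0.75 and -0.41 in the knockout pools, against 1.14, 1.23 and 1.76 in wild type pools 2, 5 and 7 and 0.15 on the array labelled wild type pool 1. All knockout pools lay below wild type pools 2, 5 and 7, but the array labelled wild type pool 1 lay inside the knockout range. The difference was -1.18 ± 0.28 over 7 arrays, a 2.27-fold lower level (limma, unadjusted p = 0.00385, adjusted p = 0.349), and -0.88 ± 0.41 over 8 (adjusted p = 0.735). A second, dim Cdkn1a probe at another accession gave 0.06 ± 0.17, so the lower level was seen with 1 of 2 probes.

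Cdkn1b (p27), an inhibitor of Cdk2, measured 2.27, 2.27, 2.47 and 2.08 in the knockout pools, against 2.62, 2.38 and 2.72 in wild type pools 2, 5 and 7 and 0.98 on the array labelled wild type pool 1. Knockout pool 3 lay above wild type pool 5, and the difference was -0.30 ± 0.13 over 7 arrays (limma, adjusted p = 0.477) and 0.10 ± 0.41 over 8. Cdkn1c (p57), an imprinted inhibitor, measured 7.16, 7.46, 7.15 and 7.30 in the knockout pools and 7.04, 7.16 and 7.27 in the wild type pools, with 4.94 on the array labelled wild type pool 1. The groups overlapped, with a difference of 0.11 ± 0.12 over 7 arrays that became -0.10 with arrays scaled to their median, and of 0.66 ± 0.51 over 8. Cdkn2c (p18), an inhibitor of Cdk4 and Cdk6, measured -1.53, -2.12, -1.68 and -2.51 in the knockout pools, against -2.13, -2.05 and -1.95, with -4.04 on the array labelled wild type pool 1. The knockout pools lay on both sides of the wild type pools, and the difference of 0.08 ± 0.24 over 7 arrays became -0.12 with arrays scaled to their median; over 8 it was 0.58 ± 0.51.

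**Figure D4:**
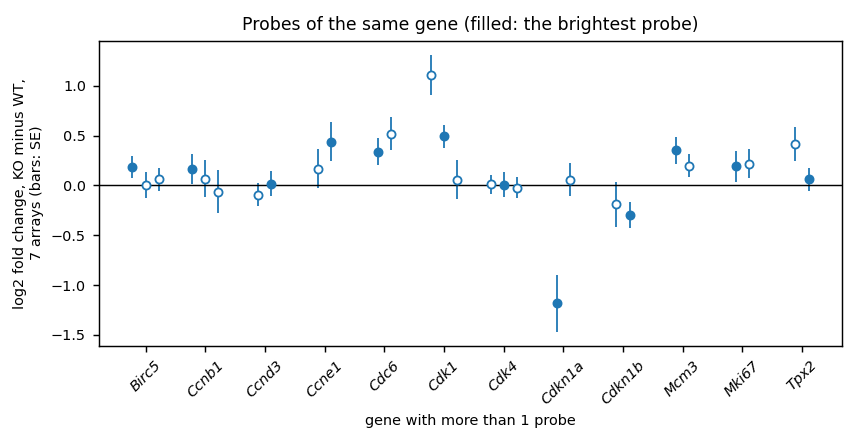
Points are log2 fold changes over 7 arrays (knockout minus wild type; bars are SE) of the probes of the 12 genes with more than 1 probe kept, and the filled point is the brightest probe, whose values are used elsewhere. In 4 genes (Ccnb1, Ccnd3, Cdk4 and Cdkn1a) the probes lie on both sides of 0. The largest gap within a gene, 1.24, is that of Cdkn1a. With arrays scaled to their median every value shifts by -0.21.

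Other genes of the same pathways were taken from lists chosen by role, and no gene of these lists passed the test. Over 7 arrays, 17 of 21 other genes of G1 and the Rb pathway, 34 of 39 other replication genes and 39 of 45 other genes of G2 and mitosis had a log2 fold change above 0, with medians of 0.19, 0.17 and 0.15 beside 0.05 for all genes. With arrays scaled to their median, 10, 15 and 14 of them lay above 0, and 15, 34 and 37 above the median of all genes. In 13 of these 105 genes every knockout pool lay above every wild type pool, beside 6.57% of all genes, and in 1 below. Over 7 arrays, 59.3% of all genes lay above 0. Among p53 targets, 7 of 11 did, near that share, with a median of 0.06, and none had an unadjusted p under 0.05. With arrays scaled to their median, 2 of 11 p53 targets lay above 0, beside 26% of all genes. Over 8 arrays, 19 of 21, 38 of 39, 41 of 45 and, of the p53 targets, 9 of 11 lay above 0. Of all genes, 57% did.

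Of the other replication genes, Gmnn (geminin, which holds Cdt1 back) read 1.73, 1.87, 1.53 and 1.95 in the knockout pools, against 1.22, 1.40 and 1.19 in wild type pools 2, 5 and 7. Every knockout pool was the higher, and the difference was 0.50 ± 0.13 (limma, adjusted p = 0.353). Dut, which removes dUTP before it can enter DNA, differed by 0.46 ± 0.12 (adjusted p = 0.363 by limma). The atypical repressor E2f7 differed by 0.42 ± 0.11 and the E2F partner Tfdp1 by 0.43 ± 0.13. The condensin subunit Smc2 and the chromosome motor Kif22 differed by 0.32 ± 0.10 and 0.34 ± 0.11. None of these 6 genes overlapped between the 4 knockout pools and wild type pools 2, 5 and 7 (6.57% of all genes lay higher without overlap). They were named because they had the smallest p of their lists over 7 arrays, so their lack of overlap is no separate result. The p53 targets Sesn2, at -0.26 ± 0.12, and Aen, at 0.27 ± 0.15, had the smallest p of their list and lay on opposite sides of 0.

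Differences between pools of 1 group were shared by many members. For the mean over the 15 replication genes, each centred on its mean over the 7 pools, knockout pools 1, 2, 3 and 7 were at 0.13, 0.17, -0.07 and 0.20, and wild type pools 2, 5 and 7 at -0.22, -0.02 and -0.18. Knockout pool 3 was thus below wild type pool 5, and the groups overlap by that pair. Knockout pool 3 was the lowest knockout pool for 13 of the 15 replication genes and for 33 of the 48 genes, and wild type pool 5 was the highest of wild type pools 2, 5 and 7 for 31 of 48. The mean over the 21 genes of G2 and mitosis was 0.14, 0.06, -0.02 and 0.17 in the knockout pools and -0.18, 0.02 and -0.19 in the wild type pools, with the same pair overlapping. The median residual SD over 7 arrays was 0.15 for replication genes and 0.21 for all genes.

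Markers of other cell types were summed in the same pools; no marker gene passed the test. The summed level of 8 second heart field markers, on a linear scale relative to the 75th percentile, was 38.7 to 50.0 in the knockout pools against 21.6 to 36 in wild type pools 2, 5 and 7. That of the 6 neural crest markers measured of 8 (Foxd3 and Tfap2b were not tested) was 6.49 to 7.92 against 4.2 to 6.39. These sums weigh the brightest genes most, and by centred mean both lists overlapped. For second heart field, wild type pool 2 (0.03) lay above knockout pools 1 and 3 (-0.01 and -0.09). For neural crest it (0.23) lay above knockout pools 2 and 3 (0.18 and 0.14). Over 7 arrays, 7 of 8 second heart field and 4 of 6 neural crest markers lay above 0, beside 59.3% of all genes. Scaling arrays to their median shifts every difference over 7 arrays by -0.21, and marker counts were not made on that scale. All 12 cardiomyocyte markers lay below 0 over 7 arrays, but 11 of 12 above 0 over 8, with sums of 1964 to 2246 against 1927 to 2863. All 8 neuronal markers lay above 0 over 7 arrays, with sums of 20.3 to 27.1 against 14.5 to 20.9. Both pairs of ranges overlap. Over 7 arrays, 3 of 8 endothelial, 4 of 8 cushion mesenchyme, 5 of 8 epithelial and 6 of 8 macrophage markers lay above 0. Over 8 arrays, 57% of all genes lay above 0. So did 6 of 8 second heart field, 5 of 6 neural crest and 6 of 8 neuronal markers. Of the endothelial markers 5 of 8 did, of cushion mesenchyme 8 of 8, of epithelium 4 of 8 and of macrophages 2 of 8. All 10 erythroid markers also lay above 0, with sums of 1213 to 1965 against 923 to 1873 and a centred mean of 0.25, 0.80, -0.54 and 0.51 in the knockout pools and 0.71, -1.13 and -0.60 in wild type pools 2, 5 and 7. Knockout pool 3, lowest for the replication genes, was also the lowest knockout pool for erythroid (-0.54), epithelial (-1.26), second heart field (-0.09) and neural crest (0.14) markers. It was not the lowest for the other lists. Wild type pool 2, lowest for many mitotic genes, was the highest of wild type pools 2, 5 and 7 for these lists. The same was so for neuronal and macrophage markers. The part of these cell types in the cell cycle differences was not tested, and in pooled tissue fewer cells of a type and less RNA per cell cannot be told apart.

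**Figure D5:**
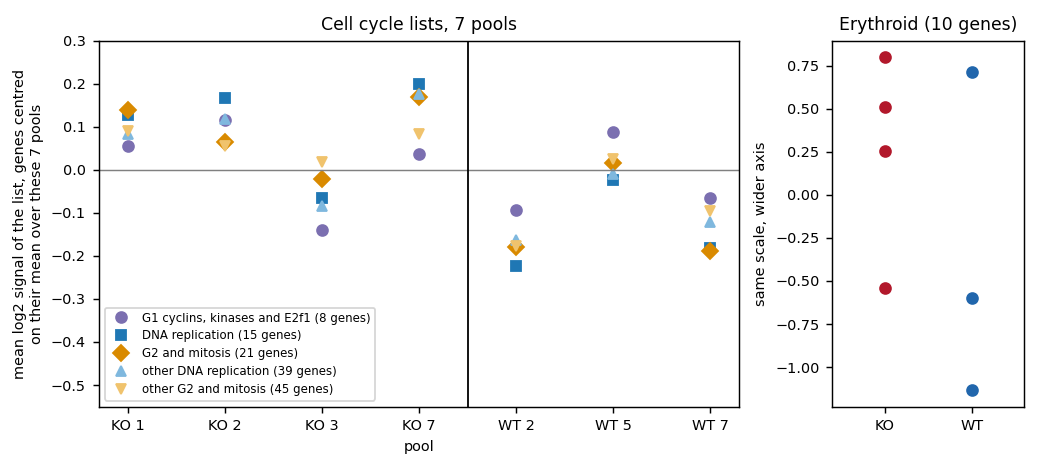
The left panel shows the mean log2 signal of 5 cell cycle lists in the 7 pools other than wild type pool 1, each gene centred on its mean over these pools, and the right panel the same for 10 erythroid markers on a wider axis. Knockout pool 3 lies below wild type pool 5 for the replication genes (-0.07 against -0.02), while knockout pools 1, 2 and 7 lie above all wild type pools.

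The differences over 8 arrays include the array labelled wild type pool 1. It was lower than the mean of the other wild type pools in 45 of 48 members, with a median difference of -1.98 (log2), while over all 24388 genes it was lower in 55.8%, with a median of -0.51. It was the lowest of the 8 arrays for 42 of 48 members. The median difference of the members was 0.64 with it and 0.14 without it.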

How the data were processed

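The authors deposited scanner files of 8 one-colour Agilent arrays (design 028005, 60-base probes on mm9) from Feature Extraction 10.7.3.1 (protocol GE1_107_Sep09); their values are in the unit intensity, background-subtracted and detrended per the file headers. Per the labels, 50 ng of RNA was labelled with Cy3. Spots flagged as non-uniform or as population outliers were left out, and the other spots of a probe were averaged (59305 spots, 55681 probes). A probe was kept if its signal cleared background in 3 or more pools of the same genotype (33438 over 8 arrays, 32393 over 7). Of these, probes with an unflagged spot on every array entered (33404 and 32386), and the brightest stood for its gene. The log2 75th percentile of an array was subtracted from its log2 processed signals. Groups were compared with limma 3.58.1 (R 4.3.3; lmFit and a two-sided eBayes test); p-values were adjusted across all genes by Benjamini-Hochberg and called at 0.05; the fit was tested on simulated data. The number of arrays limits the precision. No 2 arrays were duplicates (highest correlation 0.992). The 22 genes given in every pool followed a rule: 14 listed genes and the 3 of each role with the smallest p, besides Mcm5, chosen after its values were seen. The members, lists and tests were chosen with earlier results of these data known. Alternatives were normexp background (offset 50), the deposited matrix, scaling to the array median or by quantiles, no or a stricter filter on dim probes, the mean of probes, single probes, trend and robust eBayes, array weights, pool number or slide column as a block, and leaving out each pool. Promoter windows came from RefSeq (GRCm38.p6).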

Additional observations from a re-analysis of the deposited data

Results flagged for a closer look

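In 52 groups of 4 pools (the 22 genes given in every pool and the 4 role means, in each genotype), 19 held 1 pool farther from the other 3 than Dixon's criterion allows; chance alone gives about 1 in 20, or 2.6. Of these, 17 were the array labelled wild type pool 1, which was low in each. It read 4.51 for Ccnd3, 3.92 for Cdk4, 0.0259 for E2f1, -1.64 for Cdc6, -0.16 for Gins1, 1.59 for Mcm2, 2.79 for Mcm3, 3.02 for Pcna, 0.64 for Top2a, 0.61 for Cdk1, 2.34 for Plk1, 4.94 for Cdkn1c and -4.04 for Cdkn2c. Its mean over the centred genes was -1.75 for the G1 genes, -1.80 for DNA replication, -1.68 for G2 and mitosis, and -1.57 for the Cdk inhibitors. The other 2 were Mcm3 in knockout pool 3, at 4.81 below the other knockout pools, and Aurkb in wild type pool 7, at -6.64 below the other wild type pools and not well above background.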

How the results depend on the processing

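No member passed the test under any alternative run in either fit. The count of genes called over 8 arrays was 0 except for 8 with array weights; over 7 arrays it was 22 with arrays scaled to their median, and 0 to 10 on leaving out 1 pool (1 without knockout pool 7, 10 without wild type pool 5). Of the members, 16 of 48 lay above 0 over 7 arrays with median scaling, where their median was -0.0617, and 35 to 43 on leaving out 1 pool. Pool numbers 1, 2 and 7 are shared between the groups, and the labels do not state whether they pair the pools. Deviations of same-numbered pools correlated at -0.151, 0.325 and -0.406 over 8 arrays, which include wild type pool 1. Over 7 arrays they correlated at 0.047 for pool 2 and -0.039 for pool 7. So few pairs cannot decide whether the pools are paired. With pool number as a block the median of the members over 7 arrays was 0.232 and no gene was called. Over 8 arrays, quantile normalization turned Ccnd2 to -0.278 and Cdkn1b to -0.254, the mean of probes turned Cdkn1b to -0.174, and array weights turned Ccnd1 to -0.126, Ccnd2 to -0.211 and Cdkn1b to -0.256. Over 7 arrays, quantile normalization turned Cdkn2c to -0.0099. Median scaling turned Ccnd3 to -0.186, Cdk4 to -0.196, Mki67 to -0.0145, Top2a to -0.184, Ccnb1 to -0.0392, Cdkn1c to -0.0954 and Cdkn2c to -0.124. The mean of probes turned Ccnd3 to -0.0364 and Cdk4 to -6.2e-05. The block by pool number turned Ccnd1 to 0.153 and Cdkn2c to -0.280. The block by slide column turned Cdk4 to -0.0034, Top2a to -0.0020 and Cdkn2c to -0.0629. Leaving out 1 pool gave, over 7 arrays, -0.245 to 0.283 for Ccnd1, -0.0561 to 0.095 for Ccnd3, -0.0655 to 0.0676 for Cdk4, -0.0629 to 0.264 for Cdkn2c and -0.0020 to 0.0628 for Top2a. Over 8 arrays it gave -0.0245 to 1.06 for Ccnd1, -0.304 to 0.479 for Ccnd2 and -0.298 to 0.280 for Cdkn1b, with the lowest value in each case without wild type pool 1. Of the 22 genes given in every pool, the other values kept their sign; of the remaining members, alternatives other than median scaling were not followed gene by gene. Causes were not tested. Where a leave-out left fewer pools, p-values rest on the remaining spread, and dim probes (Aurkb, Cdkn2c) are limited by signal over background.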
